A study of Arabidopsis thaliana with 4 samples.

Results

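UDP-glycosyltransferases named UGT were compared between wild type (WT) and fer-4 seedlings of Arabidopsis thaliana. The genes were taken by name: a gene counted when its name in the deposited files is UGT followed by a number, and UGT75C1 and UGT79B1, which act on anthocyanins, were set aside. The files listed 102 such genes, and 94 of them, in 18 number groups, reached a mean of 0.5 FPKM over the 4 libraries and were tested among 20284 genes that passed the same limit. FPKM is a fragment number scaled by transcript length and by library size, so levels can be compared between genes.

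The study holds 4 RNA-seq libraries, 2 of WT and 2 of fer-4, from whole seedlings of the Col-0 ecotype. Per the labels, the fer-4 plants have the genotype FERONIA-/-, which is a loss of the receptor kinase FERONIA (FER), and the WT plants are wild type at that gene. All seedlings were 7 days old, stood upright on plates of diluted Murashige and Skoog medium, had 16 h of light and 8 h of dark a day, and received no treatment. The labels do not say how many seedlings went into a library or whether replicates came from separate plates or days, so the p-values reflect the spread between 2 libraries of each genotype and that spread may be technical. With 1 mutant line, an effect of the mutation and any other difference between the lines cannot be told apart.

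FER itself was at 89.0 and 91.9 FPKM in WT replicates 1 and 2 and at 60.6 and 62.1 in the fer-4 replicates. Its transcript fell 1.47-fold (log2 change -0.55, adjusted p = 0.00648 in limma), so the mutant libraries still held FER reads, and with WT replicate 1 or 2 left out the log2 change was -0.57 and -0.53 (adjusted p = 0.0538 and 0.0659). A fit without 1 library has a single library of that genotype and assumes that it varies like the pair of the other genotype, so a call lost there can come with an almost unaltered fold; this holds for every such value given here. All FPKM values of a library added up to 680752 to 689279, and the depth, estimated from the smallest listed values, was about 19.8 to 21.9 M fragments, at which 1 FPKM in a transcript of 1500 bp stands for 29.8 to 32.9 fragments. Spearman correlations across genes, which are not independent replicates, were 0.992 within WT, 0.987 within fer-4 and 0.930 to 0.943 between genotypes. Seed storage markers CRA1 and CRC were at 0 in every library. Of 4 root markers, EXPA7 rose and PYK10, CASP1 and SCR did not pass the test; the list summed to 1778 and 1783 FPKM in WT and 2097 and 2410 in fer-4. None of the 3 shoot and leaf markers RBCS1A, LHCB1.3 and CAB2 passed; that list summed to 11485 and 12056 FPKM in WT and to 10450 and 8574 in fer-4. The part of these shifts in the UGT values was not tested, and in whole seedlings fewer cells of a type and less RNA per cell cannot be told apart.

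UGTs move a sugar from a nucleotide sugar such as UDP-glucose onto a small acceptor, among them hormones, flavonols, monolignols, glucosinolate precursors and foreign compounds. The sugar usually makes the acceptor more soluble, less active and ready for storage in the vacuole, and many of the hormone conjugates can be cleaved again. The number in a gene's name marks its sequence family, and many families lie in tandem arrays whose members can differ in acceptor and in expression. The donor is held by a conserved stretch near the C-terminal end, the plant secondary product glycosyltransferase (PSPG) box, and a pattern for this box of 44 residues was found once in the translated coding sequence of 86 of the 102 genes.

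The coding DNA of the box, 132 bases long, is shown for 3 arrays in which some members passed the test and others did not, because it shows how alike these neighbours are; a difference in response between neighbours was not tested. It was read from TAIR10.1 (RefSeq), 5' to 3' on the coding strand, which is the minus strand for every gene shown. In the UGT73C array on chromosome 2, capitals mark bases that differ from UGT73C6, which fell in fer-4. UGT73C6 (chr2:15420633-15420764) and UGT73C5 (chr2:15423787-15423918) differ at 11 bases, while UGT73C4 (chr2:15415521-15415652), which rose, differs at 26 and UGT73C3 (chr2:15417912-15418043) at 27.
UGT73C6: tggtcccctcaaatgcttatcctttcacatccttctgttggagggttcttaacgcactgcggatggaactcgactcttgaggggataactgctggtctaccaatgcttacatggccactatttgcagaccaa
UGT73C5: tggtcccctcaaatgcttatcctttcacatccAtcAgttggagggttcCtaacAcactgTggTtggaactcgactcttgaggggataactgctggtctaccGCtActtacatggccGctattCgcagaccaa
UGT73C4: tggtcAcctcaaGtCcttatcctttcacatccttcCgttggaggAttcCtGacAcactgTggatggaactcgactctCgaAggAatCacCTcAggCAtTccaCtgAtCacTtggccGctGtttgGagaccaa
UGT73C3: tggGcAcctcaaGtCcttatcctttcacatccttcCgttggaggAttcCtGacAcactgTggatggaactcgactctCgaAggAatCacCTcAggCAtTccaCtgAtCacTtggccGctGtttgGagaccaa
In the UGT76E array on chromosome 3, capitals mark differences from UGT76E12 (chr3:17189640-17189771), the gene with the largest log2 change among the members. UGT76E11 (chr3:17193029-17193160) differs at 10 bases and UGT76E3 (chr3:17200664-17200795) at 29.
UGT76E12: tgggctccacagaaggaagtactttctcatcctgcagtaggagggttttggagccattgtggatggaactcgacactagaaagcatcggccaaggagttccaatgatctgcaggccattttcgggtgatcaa
UGT76E11: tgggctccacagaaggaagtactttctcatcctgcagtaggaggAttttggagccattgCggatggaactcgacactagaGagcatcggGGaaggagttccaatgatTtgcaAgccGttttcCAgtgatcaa
UGT76E3: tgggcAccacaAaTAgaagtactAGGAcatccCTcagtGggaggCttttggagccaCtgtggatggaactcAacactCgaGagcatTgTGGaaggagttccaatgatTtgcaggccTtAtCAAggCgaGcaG
In the UGT85A array on chromosome 1, capitals mark differences from UGT85A1 (chr1:7904103-7904234), UGT85A2 (chr1:7895308-7895439), which also rose, differs at 15 bases, and UGT85A3 (chr1:7900774-7900905), which did not pass, at 18.
UGT85A1: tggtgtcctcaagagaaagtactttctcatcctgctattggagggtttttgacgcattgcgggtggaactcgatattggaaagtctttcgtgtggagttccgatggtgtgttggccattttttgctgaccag
UGT85A2: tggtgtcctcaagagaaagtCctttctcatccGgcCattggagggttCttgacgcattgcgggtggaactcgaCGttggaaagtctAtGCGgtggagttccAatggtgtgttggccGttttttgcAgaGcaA
UGT85A3: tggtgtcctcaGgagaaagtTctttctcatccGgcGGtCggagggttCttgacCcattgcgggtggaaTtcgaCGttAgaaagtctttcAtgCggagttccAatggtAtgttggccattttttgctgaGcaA

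Of the 94 members, 27 rose and 6 fell in fer-4 at an adjusted p under 0.05 (limma, Benjamini-Hochberg over all genes tested). The members that rose made up 28.7%, against 14.1% of all genes tested, and those that fell 6.38%, against 8.76%. By a log2 change of at least 1 in size, 11 rose (11.7%, against 5.33% of all genes) and 2 fell (2.13%, against 1.68%). Both fer-4 libraries lay above both WT libraries for 48 members (34.4% of all genes tested did so) and below for 23 (31.4% of all genes), so the genotypes did not overlap for 75.5% of members against 65.8% of all genes tested. The median log2 change was 0.25 over the members and 0.0065 over all genes. These counts cover the 94 that reached the limit. Of them, 7 were under 0.5 FPKM in WT alone and 1 in fer-4 alone, and such a gene had to differ to be counted. UGT76E12, UGT73C4 and UGT71B5 are among these 7 and also among the 11 that rose by a log2 change of at least 1.

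With a library left out, calls over all genes fell in every fit. Calls over the members fell too, except without fer-4 replicate 1, where they rose slightly. Without WT replicate 2, 7 members passed as higher (7.45%, against 5.34% of all genes tested) and 3 as lower (3.19%, against 1.85%), so the higher share lay near that of all genes. Without WT replicate 1, 13 passed as higher (13.8%, against 5.89%) and 3 as lower (3.19%, against 2.11%). Without fer-4 replicate 2 there were 15 higher (16.0%, against 9.31%) and 6 lower (6.38%, against 4.75%), and without fer-4 replicate 1 there were 29 higher (30.9%, against 12.4%) and 6 lower (6.38%, against 7.20%). The share of members that fell was thus under that of all genes with all 4 libraries and above it in 3 of these 4 fits. The log2 changes of the 33 members that passed held their sign in all 4 fits. In these members the genotypes did not overlap, so leaving out a library could not turn the sign, and this adds no support. A left-out library moved the log2 change by more than 1.5 times in UGT79B5 alone (0.74 with all libraries, 0.48 without WT replicate 2).

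Of the members' calls 81.8% were higher, and 61.8% of those over all genes. After quantile normalization these shares were 70.4% and 49.5%, and after rescaling to a common upper quartile 75.9% and 51.1%; without WT replicate 2 the order turned, at 70% of the members' calls and 74.3% of those over all genes. After quantile normalization 19 members rose (20.2%, against 11.8% of all genes) and 8 fell (8.51%, against 12.0%), and after rescaling to the upper quartile 22 rose (23.4%, against 12.1%) and 7 fell (7.45%, against 11.6%).

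Summed over the members, the level was 1240 and 1122 FPKM in the WT libraries and 1454 and 1703 in the fer-4 libraries, 1.34-fold higher in fer-4, and the genotypes did not overlap. Of the 27 genes that rose, 20 were higher in fer-4 replicate 2 than in fer-4 replicate 1. Their median difference between these replicates was 0.16 on the log2(FPKM + 1) scale, against 0.049 over all genes that rose and 0.013 over all genes tested. Members spanned a wide range of levels, with a median of 8.38 FPKM; the highest was UGT74B1, the S-glucosyltransferase of glucosinolate synthesis, at 69.8 FPKM. Just inside the limit of 0.5 FPKM lay UGT76F1 at 0.573 and UGT72C1 at 0.610, and just outside lay UGT82A1 at 0.465 and UGT76E6 at 0.447. The other genes under the limit, which were not tested, were UGT71B8, UGT78D3, UGT79B3, UGT79B10, UGT83A1 and UGT91B1.

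**Figure D1:**
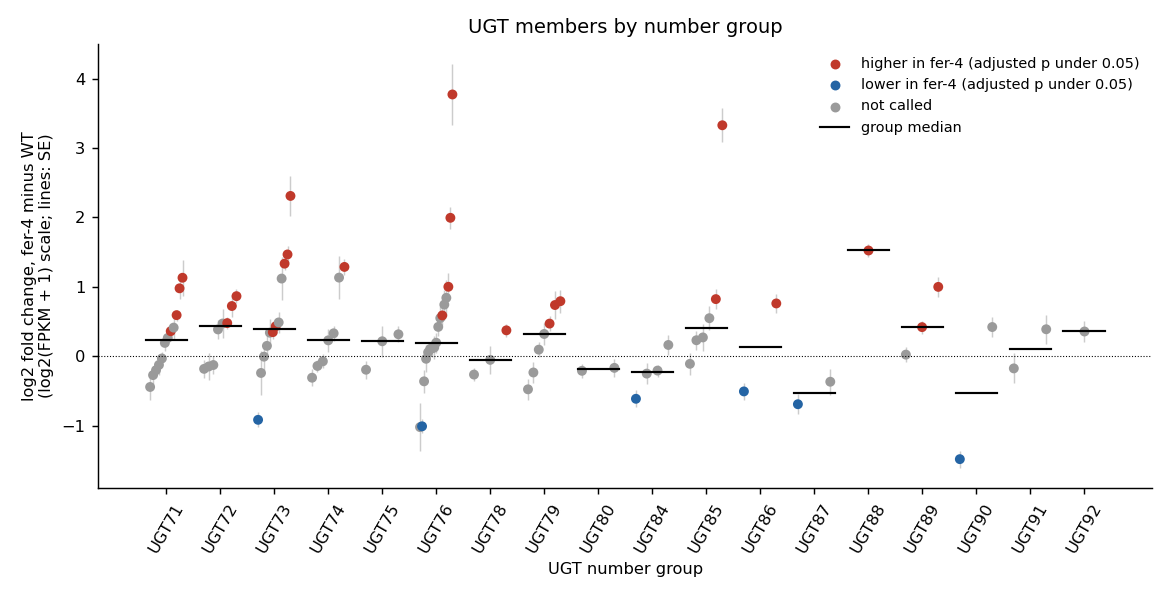
Log2 fold change of each of the 94 UGT members in fer-4 against WT (log2(FPKM + 1) scale, lines show the SE), by number group, with the group median as a bar. UGT76E12 at 3.77 and UGT85A1 at 3.33 stand above the rest, and UGT90A1 at -1.48 is the lowest.

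Among the 11 number groups with 3 or more members, which hold 82 of the 94, UGT85 had the largest change in summed level. Its 6 members together gave 75.2 and 65.3 FPKM in WT and 176 and 251 in fer-4, 3.04-fold higher, and 2 of the 6, UGT85A1 and UGT85A2, rose. Most of the difference came from UGT85A1: without it the sum was 1.66-fold higher, and without UGT85A2, the highest member of the group, 5.39-fold. UGT76 followed at 1.54-fold, with 4 of 17 members up and 1 down, then UGT72 at 1.46-fold with 3 of 8 up. UGT73 came next at 1.44-fold with 5 of 12 up and 1 down, and UGT89 at 1.42-fold with 2 of 3 up. The UGT76 sum and counts leave out UGT76B1, which is listed under its locus name and rose. It was at 31.4 and 21.4 FPKM in WT and 45.1 and 60.9 in fer-4. For comparison with the counts of each group, 14.1% of all genes tested rose and 8.76% fell. The summed level of UGT72 was 107 and 101 FPKM in WT and 150.5 and 153 in fer-4, and that of UGT73 was 195 and 153 in WT and 229.5 and 274 in fer-4. In these 5 groups both fer-4 sums lay above both WT sums, and the same held for UGT74, UGT79, UGT75 and UGT71. In UGT75 the gap was small, with sums of 73.5 and 72.3 FPKM in WT and 74.1 and 91.8 in fer-4. Of all single genes tested, 34.4% had both fer-4 values above both WT values. The order below UGT85 rested on single members: without the member with the largest difference in FPKM, a choice made after seeing the data, the ratio was 1.55 for UGT89, 1.31 for UGT72, 1.29 for UGT76 (without UGT76E3) and 1.26 for UGT73 (without UGT73B4).

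Smaller differences were found in UGT74 at 1.3-fold (1 of 7 up), UGT79 at 1.29-fold (3 of 7 up), UGT75 at 1.14-fold (0 of 3) and UGT71 at 1.09-fold (4 of 12 up). The count of UGT74 lies near the 14.1% of all genes tested that rose. UGT78 was close to even at 1.03-fold, with 1 of 3 up and overlapping sums of 38.4 and 35.7 FPKM in WT and 36.8 and 39.6 in fer-4. UGT84, whose members esterify hydroxycinnamic acids, was the only group of 3 or more members with a lower sum in fer-4: 46.8 and 42.9 FPKM in WT and 33.4 and 36.5 in fer-4, with 1 of 4 down. Without the member with the largest difference, UGT74 was 1.14-fold higher (without UGT74F2), UGT79 1.16-fold and UGT71 1.03-fold. By the same step UGT75 was at 0.902 of its WT sum, UGT78 at 0.831 and UGT84 at 0.912. Without its highest member, UGT78D2, UGT78 was 1.29-fold higher. Median log2 changes of these 11 groups ran from -0.23 in UGT84 to 0.43 in UGT72. In each group at least 1 member did not pass the test, and whether the members of a group moved together was not tested. Members of a group share sequence and are not replicates, and 2 libraries against 2 allow no permutation p under 33.3%, so groups were described without a test.

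**Figure D2:**
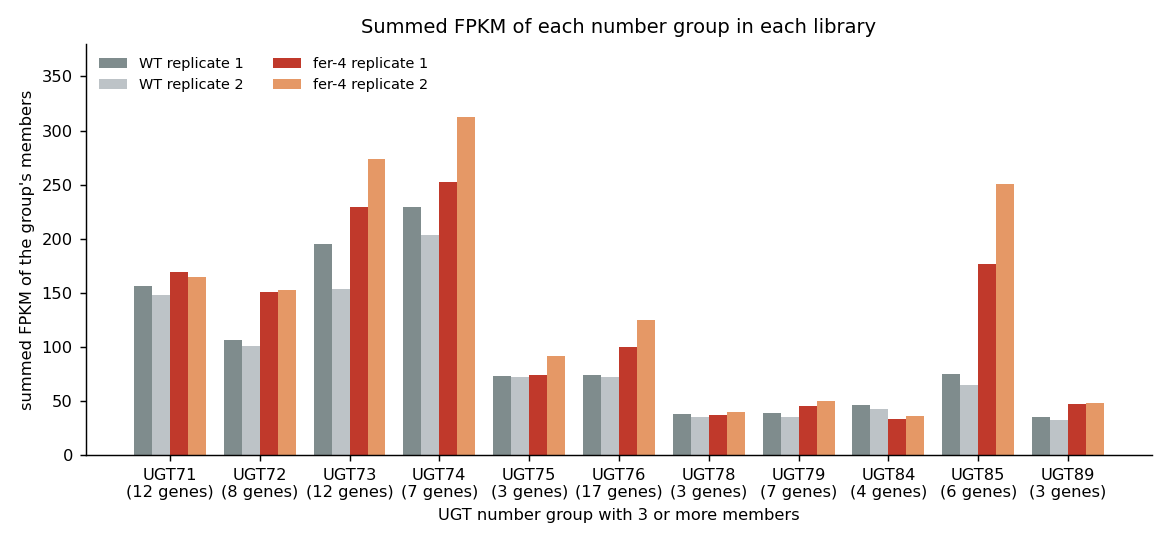
Summed FPKM of the members of each number group with 3 or more members, 1 bar per library. The fer-4 bars of UGT85 (176 and 251) stand far above its WT bars (75.2 and 65.3), and UGT84 is lower in both fer-4 libraries.

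Among the 7 groups of 1 or 2 members, UGT88A1, the sole UGT88 gene, rose, UGT86 held a rise and a fall, UGT87 and UGT90 held 1 fall each, and UGT80, UGT91 and UGT92 held no gene that passed. UGT86A1 rose from 7.07 and 5.44 FPKM to 11.1 and 11.3 (adjusted p = 0.0131), while UGT86A2 fell from 38.0 and 33.2 to 22.7 and 27.0 (adjusted p = 0.0310). UGT87A1 fell (17.4 and 17.7 FPKM in WT, 12.3 and 9.02 in fer-4, adjusted p = 0.0230), and its neighbour UGT87A2, known for a part in flowering time, was at 43.3 and 41.7 in WT and 26.6 and 40.4 in fer-4 and did not pass. In the last gene fer-4 replicate 2 lay close to WT. Of these calls, UGT86A1 was lost without WT replicate 2 (adjusted p = 0.0772) and fer-4 replicate 2 (0.0536), UGT86A2 without WT replicate 1 (0.173), WT replicate 2 (0.101) and fer-4 replicate 1 (0.0941), and UGT87A1 without WT replicate 1 (0.130), WT replicate 2 (0.148) and fer-4 replicate 2 (0.0517). The sterol glucosyltransferases UGT80A2 and UGT80B1, which act on membrane sterols, did not pass, with log2 changes of -0.21 and -0.17.

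The highest UGT in fer-4 was UGT85A1, which transfers glucose to the cytokinin trans-zeatin. UGT85A1 (AT1G22400, chr1:7903660-7906969, minus strand, 2 coding exons) was at 11.5 and 8.84 FPKM in WT and at 86.1 and 141 in fer-4. Every fer-4 value was far above both WT values, although the fer-4 replicates were themselves 1.64-fold apart. The mean rose 11.2-fold, the log2 change was 3.33 with an SE of 0.24, and the adjusted p was 0.000697. It passed under all 12 alternatives tried. UGT85A2, which lies in the same array, rose 1.80-fold from 49.4 and 42.5 FPKM to 71.7 and 93.5 (adjusted p = 0.0132), a call lost without WT replicate 1 (0.0671) or WT replicate 2 (0.115).

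UGT76E12 (AT3G46660, chr3:17189264-17191167, minus strand) had the largest log2 change, 3.77 with an SE of 0.44. It was listed at 0.161 and 0.0546 FPKM in WT and at 8.19 and 23.8 in fer-4, so it was near the limit of detection in WT (an estimated 6.0 and 2.0 fragments) and well above it in fer-4. With so few WT fragments no fold is given. The adjusted p was 0.00300 and became 0.0507 without WT replicate 2. A gene on the opposite strand, AT3G46658, covers the whole of UGT76E12 and was at 0 and 0.142 FPKM in WT and 3.07 and 4.82 in fer-4; without a known strand setting the reads of the overlapping genes cannot be told apart.

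UGT73C4 (AT2G36770, chr2:15415077-15416845, minus strand) rose from 0.381 and 0.262 FPKM, an estimated 13.9 and 9.25 fragments, to 3.81 and 7.91. With so few WT fragments no fold is given here either. Like UGT76E12 and UGT71B5, it was under 0.5 FPKM in WT and reached the limit only through fer-4. The log2 change was 2.31 with an SE of 0.29 (adjusted p = 0.00417 in limma). Without WT replicate 2 the log2 change was 2.25 and the call was lost. UGT76E3 (AT3G46700, chr3:17200167-17202074, minus strand) rose 4.55-fold, from 4.98 and 6.06 FPKM to 21.9 and 28.4 (adjusted p = 0.000820). Leaving out 1 library moved its log2 change by at most 0.18, against a median largest move of 0.12 over the members that passed. UGT88A1 (AT3G16520, chr3:5618408-5620969, minus strand) rose 3.16-fold, from 6.98 and 6.83 FPKM to 21.0 and 22.6, and had the smallest adjusted p of any member, 0.000450.

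UGT73B4 (AT2G15490, chr2:6761635-6763500, plus strand) and UGT73B3 (AT4G34131, chr4:16343057-16344818, minus strand) are known for a part in responses to pathogens and oxidative stress and for acting on foreign compounds. UGT73B4 rose 2.87-fold, from 20.3 and 19.9 FPKM to 51.7 and 63.7, and UGT73B3 rose 2.71-fold, from 8.37 and 8.07 to 21.9 and 22.6. Both were nearly identical between WT replicates. Neither overlapped between genotypes, which the choice of genes by the test favours. UGT74E1 (AT1G05675, chr1:1701116-1702749, minus strand), a close copy of the indole butyric acid glucosyltransferase UGT74E2, rose 2.65-fold, from 6.61 and 7.32 FPKM to 19.6 and 17.4. The adjusted p was 0.000861 for UGT73B4, 0.000585 for UGT73B3 and 0.00106 for UGT74E1.

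Low-level members also rose. UGT71B5 (AT4G15280) was at 0.0725 and 0.288 FPKM in WT and 1.04 and 2.26 in fer-4 (log2 change 1.13, adjusted p = 0.0293); the call was lost without WT replicate 1 (0.158), WT replicate 2 (0.117) or fer-4 replicate 2 (0.0609) and after quantile normalization (0.0552). UGT76E2 (AT5G59590) was at 0.842 and 0.393 FPKM in WT and 1.95 and 2.49 in fer-4 (log2 change 1.0, adjusted p = 0.0184), lost without WT replicate 2 (0.103) or fer-4 replicate 2 (0.0636). Neither gene overlapped between genotypes, which the choice of genes by the test favours. UGT89A2 (AT5G03490), which transfers xylose to dihydroxybenzoic acids, rose 2.21-fold, from 5.41 and 4.57 FPKM to 9.83 and 12.2 (adjusted p = 0.00614, and 0.0675 without WT replicate 2).

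The other members that rose did so by less than 1 on the log2 scale and, where they are not described elsewhere, were UGT72B3, UGT79B9, UGT79B5, UGT71B7 and UGT73B1. UGT72B3 was at 1.32 and 1.74 FPKM in WT and 3.5 and 2.86 in fer-4 (adjusted p = 0.0257), and UGT79B9 at 2.33 and 1.88 in WT and 3.79 and 5.02 in fer-4 (adjusted p = 0.0217). UGT71B7, also known to act on abscisic acid, was at 17.2 and 17.4 FPKM in WT and 22.1 and 22.9 in fer-4 (adjusted p = 0.0294). UGT79B5 (2.07 and 1.15 FPKM in WT, 3.05 and 3.54 in fer-4) and UGT73B1 (39.5 and 34.9 in WT, 48.7 and 46.4 in fer-4) lay nearest to the threshold, with adjusted p of 0.0491 and 0.0473. Of 12 alternatives, the call was lost in 11 for UGT79B5, 9 for UGT73B1, 7 for UGT71B7, 4 for UGT72B3 and 3 for UGT79B9. In all 5 genes the genotypes did not overlap, but 65.8% of all genes tested did not either. Genes chosen by the test are also likely to separate, so this adds no support to the calls. The calls of UGT72B3, UGT71B7, UGT79B5 and UGT73B1 were lost after quantile normalization (0.0555, 0.0524, 0.0778 and 0.0547), and without WT replicate 2 the 5 adjusted p in the order named at the start of the paragraph were 0.0844, 0.14, 0.185, 0.141 and 0.222.

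On the falling side, UGT90A1 (AT2G16890, chr2:7316789-7319243, plus strand, 3 coding exons) had the largest fall. It was at 15.4 and 13.9 FPKM in WT and 5.03 and 4.22 in fer-4, with means of 14.7 and 4.62 (log2 change -1.48 with an SE of 0.12, adjusted p = 0.000963). UGT76E9 (AT5G38010, chr5:15158197-15160314, plus strand) fell 2.19-fold, from 12.1 and 12.8 FPKM to 5.85 and 5.51 (adjusted p = 0.00190). UGT73C6 (AT2G36790, chr2:15420173-15421866, minus strand), a glucosyltransferase of brassinosteroids and flavonols, fell 2.04-fold, from 12.2 and 10.8 FPKM to 5.73 and 5.54 (adjusted p = 0.00348). In these 3 genes the replicates of a genotype were close and the genotypes far apart, and each passed under all 12 alternatives. UGT73C6 is covered by AT2G36792 on the opposite strand, which was at 10.14 and 11.3 FPKM in WT and 9.10 and 6.71 in fer-4.

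**Figure D3:**
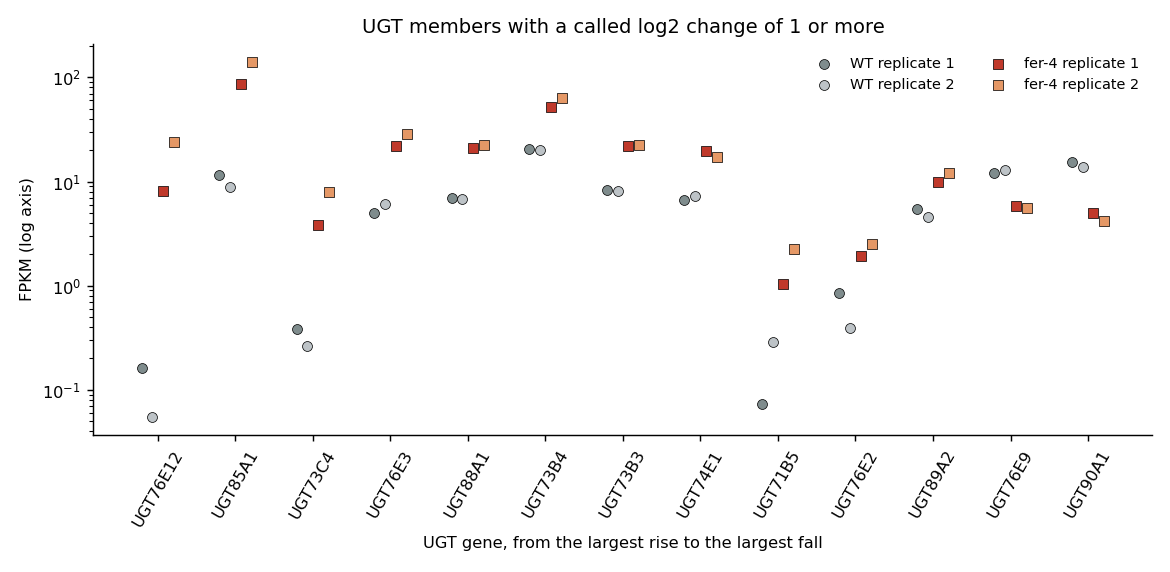
FPKM (log axis) in each library of the 13 UGT members that passed the test with a log2 change of 1 or more in size, WT as circles and fer-4 as squares. In every gene the genotypes separate, which the choice of genes by the test favours. UGT76E12 goes from under 0.2 FPKM in WT to 8.19 and 23.8 in fer-4.

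Sorted by acceptor, the UGT members of hormone pathways went different ways. For the counts of each list from here on, 14.1% of all genes tested rose and 8.76% fell. The lists are short, and their counts were not tested against these shares. For abscisic acid, UGT71B6 rose 2.46-fold, from 2.26 and 1.66 FPKM to 4.61 and 5.0 (adjusted p = 0.00802), and UGT71C5 rose 1.54-fold, from 20.1 and 19.8 FPKM to 30.2 and 31.0 (adjusted p = 0.00529), while UGT75B1, the third enzyme of the list, did not pass at 48.4 and 48.0 against 54.2 and 67.1 FPKM. All 3 form glucose esters of abscisic acid. The call of UGT71B6 was lost without WT replicate 2 (0.0614, log2 change 0.83 against 0.98 with all libraries). That of UGT71C5 was lost without WT replicate 1 (0.0520) or WT replicate 2 (0.0587), at log2 changes of 0.60 and 0.58 against 0.59. UGT71B6 lies within AT3G21781, annotated on the opposite strand and listed at 0.746 FPKM or less.

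Of 10 tested other genes of abscisic acid synthesis and breakdown, 3 rose and 3 fell. BGLU18, a glucosidase that releases abscisic acid from its glucose ester, rose 8.07-fold, from 54.8 and 56.0 FPKM to 224 and 671, and NCED3, which catalyses the first committed step of stress-induced synthesis, rose 2.89-fold, from 0.890 and 1.0 to 2.68 and 2.78. CYP707A2 and CYP707A3, hydroxylases that inactivate the hormone, fell 4.19-fold and 2.06-fold. Without WT replicate 1 the adjusted p was 0.0940 for BGLU18, 0.0567 for NCED3 and 0.158 for CYP707A3, and without WT replicate 2 it was 0.0990, 0.0511 and 0.142.

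For cytokinins, UGT85A1 rose and the N-glucosyltransferases UGT76C1 and UGT76C2 did not pass, with log2 changes of 0.06 and 0.20. UGT76C2, the higher of these, was at 11.1 and 8.33 FPKM in WT and 10.8 and 11.6 in fer-4, so the genotypes overlapped. Of 14 other cytokinin genes tested, 0 rose and 3 fell. CYP735A2, which makes trans-zeatin forms, fell 2.23-fold (4.87 and 4.54 FPKM to 1.91 and 2.31), and CKX7, a cytokinin oxidase, fell 2.09-fold (6.99 and 6.40 to 3.3 and 3.09). CYP735A2 did not pass without WT replicate 1 (0.0721) or WT replicate 2 (0.0649), nor CKX7 without WT replicate 1 (0.0573).

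For auxins, 0 of 3 tested members passed: UGT74D1, UGT74E2 and UGT75D1 had log2 changes of -0.14, 0.23 and -0.19. Among 8 other auxin genes 4 rose and 0 fell. IAR3 and ILL6, amidohydrolases that split hormone conjugates with amino acids, rose 5.57-fold (30.8 and 25.4 FPKM to 111 and 201) and 5.52-fold (5.92 and 6.24 to 30.6 and 36.6). IAR3 is also known to cleave jasmonate conjugates, as is ILL6. For brassinosteroids, UGT73C6 fell and UGT73C5 did not pass (42.2 and 24.3 FPKM in WT, 21.1 and 34.5 in fer-4), and 0 of 5 other genes tested passed.

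For salicylate and related benzoates, 1 of 5 members, UGT89A2, rose. UGT74F2, which forms the glucose ester of salicylic acid, was at 44 and 24.3 FPKM in WT and 58.4 and 91.2 in fer-4, a log2 change of 1.13 with an SE of 0.31. Both fer-4 values were above both WT values, but the replicates differed widely and the adjusted p of 0.0500139 was just over the threshold; it was 0.0570 and 0.219 without WT replicate 1 or 2 and 0.0350 and 0.171 without fer-4 replicate 1 or 2. UGT74F1, its neighbour, went from 3.49 and 3.76 FPKM to 2.65 and 2.82 and did not pass. UGT71C3, which acts on methyl salicylate, and UGT76D1, on dihydroxybenzoic acids, had log2 changes of 0.41 and 0.55 and did not pass.

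Of 10 tested other genes around salicylate and N-hydroxypipecolate 3 rose and 1 fell. EDS5, which exports the salicylate precursor from the chloroplast, rose 2.70-fold (7.90 and 7.43 FPKM to 17.8 and 23.5), FMO1, which makes N-hydroxypipecolic acid, was at 0.318 and 0.0575 in WT and 0.915 and 2.34 in fer-4 (adjusted p = 0.0460), and ALD1, an aminotransferase upstream of FMO1, fell 6.26-fold (6.37 and 6.71 to 0.749 and 1.34). The call of FMO1 was lost without WT replicate 1 (0.134), WT replicate 2 (0.225) or fer-4 replicate 2 (0.0947), and in both other scalings (0.0839 and 0.0543).

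**Figure D4:**
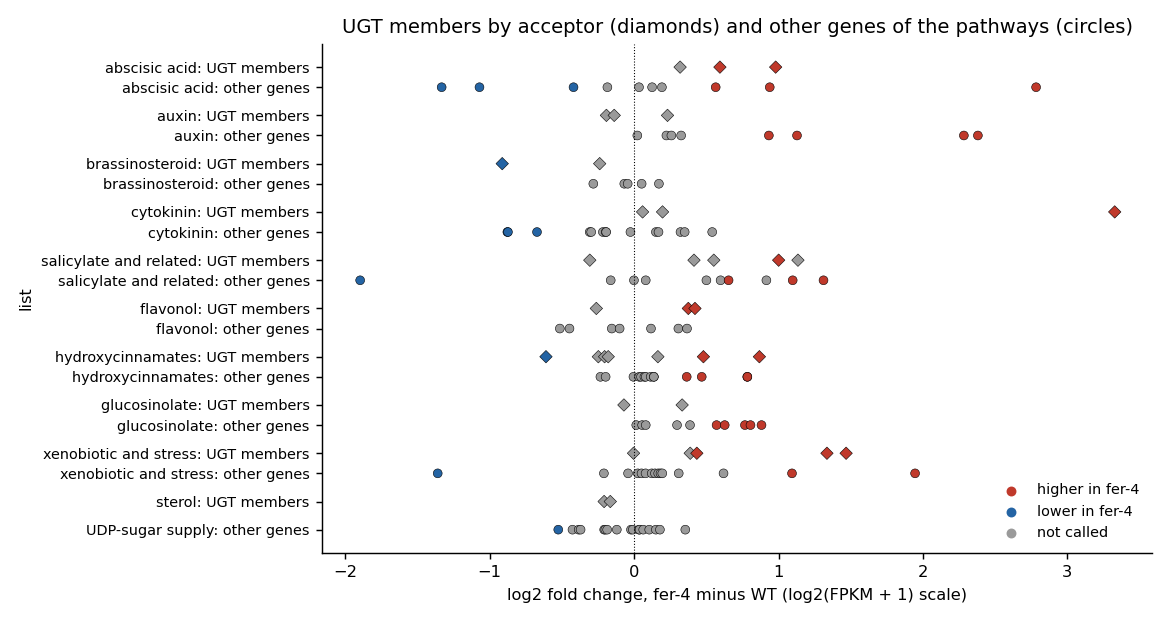
Log2 fold change in fer-4 against WT (log2(FPKM + 1) scale) of UGT members by acceptor (diamonds) and of other genes of the same pathway (circles). UGT85A1 at 3.33 stands apart in the cytokinin list, where no other gene rose, and IAR3, ILL6 and BGLU18 lie beyond 2 in the auxin and abscisic acid lists.

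In specialized metabolism, 2 of 3 flavonol members rose: UGT78D1, a rhamnosyltransferase at position 3, 1.32-fold (15.5 and 14.9 FPKM to 18.9 and 21.2, adjusted p = 0.0415), and UGT89C1, a rhamnosyltransferase at position 7, 1.35-fold (23.7 and 21.2 to 31.5 and 29.3, adjusted p = 0.0272). UGT78D2, the glucosyltransferase at position 3, did not pass at 21.4 and 19.9 FPKM in WT against 16.6 and 17.5 in fer-4 (adjusted p = 0.0915), but passed as lower after quantile normalization (0.0389) and after rescaling to the upper quartile (0.0391). UGT73C6, which also acts on flavonols and fell, was counted with the brassinosteroids and not in this list. Of 7 other flavonol genes tested, 0 passed. The call of UGT78D1 was lost without WT replicate 1 (0.147), WT replicate 2 (0.198) or fer-4 replicate 2 (0.169) and in both other scalings (0.0610 and 0.0609), and that of UGT89C1 without each library (0.0818, 0.160, 0.0926 and 0.0619). UGT89C1 overlaps AT1G06002 on the opposite strand, at 2.62 to 4.64 FPKM.

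Among 7 members that act on hydroxycinnamic acids or monolignols, 2 rose and 1 fell. UGT72E2, which glucosylates coniferyl and sinapyl alcohol, rose 1.85-fold, from 30.6 and 28.2 FPKM to 58.1 and 50.9 (adjusted p = 0.00299 and under 0.05 in all 12 alternatives), and UGT72E1 rose 1.41-fold, from 25.7 and 23.9 to 36.1 and 33.8 (adjusted p = 0.0144). UGT84A3, which forms hydroxycinnamate glucose esters, fell 1.56-fold, from 23.3 and 20.4 FPKM to 12.7 and 15.2 (adjusted p = 0.0189), and UGT84A1, UGT84A2, UGT84A4 and UGT72E3 did not pass. Without WT replicate 1, WT replicate 2 or fer-4 replicate 1 the adjusted p was 0.0704, 0.112 and 0.0523 for UGT72E1 and 0.128, 0.0822 and 0.0561 for UGT84A3. Of 14 other phenylpropanoid genes 4 rose and 0 fell, with HCT, an acyltransferase of lignin synthesis, up 1.74-fold (48.0 and 50.8 FPKM to 86.5 and 85) and 4CL2, a coumarate ligase, up 1.76-fold (20.1 and 17.1 to 29.4 and 36.2, lost without WT replicate 1 at 0.0556 and WT replicate 2 at 0.0969).

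The glucosinolate enzymes UGT74B1 and UGT74C1 did not pass: UGT74B1 was at 61.4 and 61.7 FPKM in WT and 71.4 and 84.6 in fer-4 (adjusted p = 0.0719), and UGT74C1 at 45.2 and 41.6 against 38.4 and 44.2. Of 10 other genes of the glucosinolate core 5 rose and 0 fell, where 14.1% of all genes tested rose and 8.76% fell. GSTF11 rose 1.92-fold (10.7 and 6.65 FPKM to 14 and 19.3) and GSTF10 1.75-fold (568 and 445 to 777 and 996), both glutathione transferases; without WT replicate 1, WT replicate 2 or fer-4 replicate 2 the adjusted p was 0.0572, 0.203 and 0.166 for GSTF11 and 0.0774, 0.172 and 0.146 for GSTF10, and GSTF11 also missed the threshold in both other scalings (0.0570 and 0.0578). Whether these pathway genes and the UGTs differ in their response was not tested.

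Of 5 members linked to foreign compounds and stress 3 rose, UGT73B3, UGT73B4 and UGT73B5. UGT73B5 went from 20.9 and 19.3 FPKM to 25.2 and 29.98 (1.37-fold, adjusted p = 0.0398); the call was lost without WT replicate 1 (0.131), WT replicate 2 (0.208) or fer-4 replicate 2 (0.148) and in both other scalings (0.0574 and 0.0556). In the annotation UGT73B4 lies wholly inside the span of UGT73B5 on the same strand, so their reads may have been divided between them. UGT72B1, which glucosylates chlorinated phenols, was at 36.3 and 35.1 FPKM in WT and 40.7 and 54.2 in fer-4, and UGT73C1 had a log2 change of -0.0041, and neither passed. Of 15 other detoxification genes 2 rose and 1 fell: the cytochrome P450 genes CYP81D8 (4.65-fold, 3.03 and 4.2 FPKM to 14.4 and 19.2) and CYP81D11 (2.16-fold, 48.2 and 40.3 to 85.1 and 106, adjusted p = 0.0543 without WT replicate 2) rose, and the glutathione transferase GSTU24 fell 2.59-fold (162 and 148 to 61.4 and 58.0). Among 17 genes that supply UDP sugars 0 rose, and UGD2, a UDP-glucose dehydrogenase, fell 1.44-fold (134 and 134 FPKM to 89.4 and 96.1, lost without WT replicate 1 at 0.0745 and WT replicate 2 at 0.0792).

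Position added a further view. With gaps of at most 10000 bp, 59 members lay in 21 arrays and 35 did not. Of the 59 in arrays 17 rose and 3 fell, and of the 35 outside them 10 rose and 3 fell. Both shares that rose lay close to the 28.7% of all members, against 14.1% of all genes tested. Of all members 6.38% fell, against 8.76% of all genes tested. In the UGT85A array (chr1:7890259-7906969, TAIR10.1) UGT85A1 and UGT85A2 rose and UGT85A3, UGT85A5 and UGT85A7 did not pass. UGT85A3, which lies 1232 bp from UGT85A1 and shares 81.6% of its coding bases, was at 1.68 and 1.46 FPKM in WT and 1.21 and 1.58 in fer-4.

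The UGT73C array (chr2:15410376-15425129) held changes in both directions. UGT73C4 rose and UGT73C6 fell, although the genes are 3327 bp apart and share 82.0% of coding bases. UGT73C3, 91.3% identical to UGT73C4, went from 1.51 and 1.34 FPKM to 2.74 and 6.41 (adjusted p = 0.0525; 0.191 and 0.233 without WT replicate 1 or 2, 0.00362 and 0.0728 without fer-4 replicate 1 or 2), and UGT73C5, 91.0% identical to UGT73C6, overlapped between genotypes. In the box sequences, UGT73C4 and UGT73C3 carry nearly the same capitals. UGT73C2, annotated between UGT73C1 and UGT73C4, was not analysed here.

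In the UGT76E array (chr3:17189264-17212541) 3 of 5 members rose: UGT76E12, UGT76E3 and UGT76E5, the last from 2.26 and 2.64 FPKM to 4.55 and 3.84 (adjusted p = 0.0329). The call of UGT76E5 was lost without any of the 4 libraries (0.161, 0.113, 0.108 and 0.0560) and in both other scalings (0.0714 and 0.0508). UGT76E11, 87.7% identical to UGT76E12, was at 3.82 and 3.93 FPKM in WT and 5.61 and 10.6 in fer-4, and UGT76E4 at 3.36 and 2.70 against 4.29 and 4.49; in both the genotypes did not overlap, but neither passed. UGT76E6, which reached 0.320 and 1.10 FPKM in fer-4, was under the limit. UGT76E9, which fell, lies on chromosome 5. Elsewhere UGT74E1 rose while UGT74E2, 252 bp away and 89.5% identical, was at 22.8 and 19.7 FPKM in WT and 21.4 and 29.4 in fer-4, and UGT73B3 rose while UGT73B2, 88.7% identical, was at 45.8 and 30.2 against 43.7 and 51.4.

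**Figure D5:**
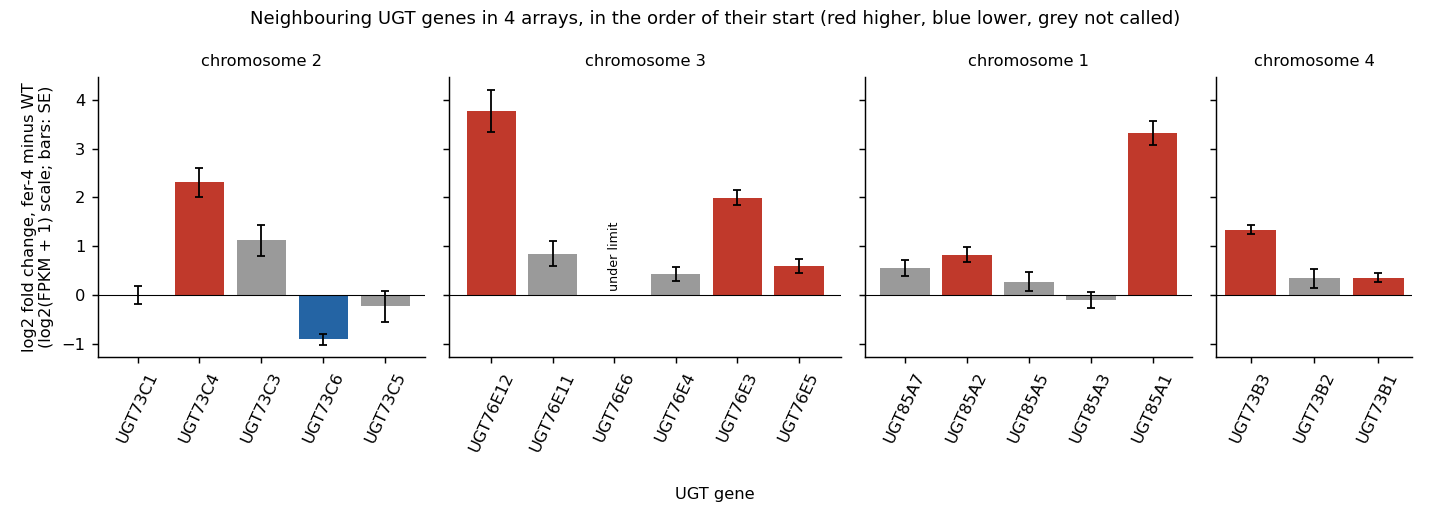
Log2 fold change with its SE for neighbouring UGT genes in 4 arrays, in the order of their start on the chromosome. UGT73C4 (2.31) and UGT73C6 (-0.91) point in opposite directions in 1 array, and UGT85A1 (3.33) rises beside UGT85A3 (-0.11).

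The sources used here do not say how reads shared by such copies were assigned. In coding sequence only UGT79B2 and UGT79B3 exceeded 95% identity to another gene of their group (95.4%). UGT79B2, which acts on anthocyanins, rose 1.41-fold, from 20.4 and 17.6 FPKM to 25.0 and 28.4 (adjusted p = 0.0324 in limma). UGT79B3, at 0.492 FPKM or less, was under the limit. The call of UGT79B2 was lost in 6 of 12 alternatives, among them no filter, the replicate term and the fit without the trend. Its log2 change was 0.47, and 0.57, 0.37 and 0.38 without WT replicate 1, WT replicate 2 or fer-4 replicate 2, where the call was also lost. Of the 33 members that passed the test, 8 overlap another annotated gene, so the values of these genes are uncertain: UGT71B6, UGT73B1, UGT73B3, UGT73B4, UGT73B5, UGT73C6, UGT76E12 and UGT89C1.

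Promoters of members that rose were searched for short motifs in the 250 bases before the annotated gene start, on both strands. TGACG, the core letters bound by TGA factors, was in 9 of the 27 that rose, 0 of the 6 that fell and 12 of the 61 that did not pass, against 18.6% of 27443 protein-coding genes. TTGAC, the core of the W box of WRKY factors, was in 17 of 27, 4 of 6 and 31 of 61, against 44.9%, and CACGTG, the G-box, in 2 of 27, 0 of 6 and 4 of 61, against 6.49%. TGACG and TTGAC can overlap by 4 letters. A match is a description of these letters only, and the counts were not tested.

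The windows of UGT73B4, UGT73B3 and UGT74E1 are shown because these are the members that rose by a log2 change of at least 1 and hold TGACG, in capitals on either strand. They are UGT73B4 (chr2:6761385-6761634, plus strand), which lies inside the annotated UGT73B5 gene, UGT73B3 (chr4:16344819-16345068, minus strand) and UGT74E1 (chr1:1702750-1702999, minus strand), all from TAIR10.1 (RefSeq) and written 5' to 3' toward the gene. UGT73B4 and UGT73B3 hold 2 matches each and UGT74E1 holds 1. The windows of UGT76E12, UGT85A1 and UGT73C4, the 3 largest rises, do not hold these letters.
UGT73B4: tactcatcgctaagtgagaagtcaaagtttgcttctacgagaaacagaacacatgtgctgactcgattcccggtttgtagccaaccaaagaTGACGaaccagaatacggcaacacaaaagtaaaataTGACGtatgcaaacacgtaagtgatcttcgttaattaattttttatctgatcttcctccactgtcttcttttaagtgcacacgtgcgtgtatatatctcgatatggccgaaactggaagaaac
UGT73B3: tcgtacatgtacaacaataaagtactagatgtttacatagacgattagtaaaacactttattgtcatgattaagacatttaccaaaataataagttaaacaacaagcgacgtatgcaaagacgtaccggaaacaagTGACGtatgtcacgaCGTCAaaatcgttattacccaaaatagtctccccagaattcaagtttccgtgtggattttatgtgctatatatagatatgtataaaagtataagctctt
UGT74E1: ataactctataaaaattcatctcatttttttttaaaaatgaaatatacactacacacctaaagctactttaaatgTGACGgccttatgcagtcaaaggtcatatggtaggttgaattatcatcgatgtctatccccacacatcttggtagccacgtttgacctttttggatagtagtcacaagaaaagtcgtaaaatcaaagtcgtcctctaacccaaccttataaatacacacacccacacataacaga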

How the data were processed

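Total RNA of whole seedlings was made into mRNA-seq libraries with a kit, per the labels' protocols, and the authors deposited 1 file of gene-level FPKM values per library, per the file headers. Per the submitters' processing notes, the tools were StringTie 1.3.3, HISAT2 2.0.5 and CASAVA and the build was TAIR10; no roles or settings are stated there. The sources used here do not state the strand setting, the annotation release or how reads with several places were handled. Each file lists genes above 0 only, so a missing gene was set to 0.

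From these values log2(FPKM + 1) was computed for the 20284 genes whose mean FPKM over the libraries reached 0.5. WT and fer-4 were compared with limma 3.58.1 in R 4.3.3 (empirical Bayes with a mean trend, two-sided), with p-values adjusted by Benjamini-Hochberg over all genes and a threshold of 0.05; the procedure was tested on simulated data. A pseudocount of 1 understates the fold change of low genes. Folds in the text are ratios of mean FPKM, with n = 2 libraries per genotype. No set test was run. Depth was estimated from the smallest listed values, since the files hold no counts. The members and gene lists were chosen with earlier results of these data known. Named genes are the members that passed with a log2 change of at least 1 in size, the highest member and the largest called rise and fall of each number group, members with a listed acceptor, and up to 2 rises and 2 falls per pathway list; other names were chosen after their values were seen.

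Positions and sequences come from the RefSeq annotation of TAIR10.1, on which 24038 of 24039 genes of the files overlap the same chromosome span; only 2156 have the same start and end, and UGT73B4 and UGT73B5 share 1 span in the files. Promoter windows therefore depend on the RefSeq starts: 11 of the 94 members start where the span in the files does, UGT73B3 and UGT74E1 among them, and 78 start further upstream in RefSeq. Motif and box searches and coding identity were computed from that genome. Alternatives covered the pseudocount, the filter, the scaling, the trend, a replicate term and leaving out each library (the fit then has 1 library in an arm). Fewer than 6 samples allow no correlation across samples.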

Additional observations from a re-analysis of the deposited data

How the results depend on the processing

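Of the 33 members that passed the test, 10 passed under all 12 alternatives, 23 missed the threshold in at least 1, and 0 changed sign. Leaving out a library could not turn the sign of these members, since their genotypes did not overlap. Of the 61 that did not pass, 17 passed in at least 1 alternative. The losses named above for single genes do not list every alternative. Of 12 alternatives, the call was lost in 8 for UGT73B5, UGT76E5 and UGT78D1 and in 5 for UGT86A2 and UGT89C1. For UGT71B5 it was lost in 5 of 11. With a pseudocount of 0.5 or 0.1 the higher and lower members were 28 and 6, with a filter of 1 FPKM 27 and 6, with no filter 22 and 4, and without the trend 24 and 5. Over all genes, 2869 rose and 1777 fell; leaving out each replicate in turn gave 1084 to 2507 higher and 375 to 1460 lower, and over the members 7 to 29 higher and 3 to 6 lower. The median over the members was 0.16 after quantile normalization, the lowest of the alternatives, and 0.31 at most.

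The replicate numbers are not said to pair the libraries, and deviations of same-numbered libraries correlated at -0.21 across genes. With the replicate block 23 members were higher and 6 lower (2496 and 1381 over all genes). With the crossed pairing, chosen after seeing the data, 33 members were higher and 7 lower (3436 and 2424 over all genes).

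Sign changes were found in 14 of the 61 members that did not pass, whose log2 changes lay between -0.24 and 0.22, and the cause was not tested; they were UGT71B1, UGT72C1, UGT73C1, UGT73C5, UGT74C1, UGT75B2, UGT76C1, UGT76C3, UGT76E7, UGT78D4, UGT79B8, UGT85A3, UGT89B1 and UGT91A1. Leaving out each replicate in turn, the median of UGT75 ran from -0.087 to 0.32, and the log2 changes ran from -0.21 to 0.21 for UGT73C1, -0.62 to 0.15 for UGT73C5, -0.17 to 0.029 for UGT74C1, -0.041 to 0.16 for UGT76C1, -0.28 to 0.21 for UGT76E7 and -0.22 to 0.0052 for UGT85A3. UGT76C1 was at -0.046 after quantile normalization and -0.0017 after rescaling to the upper quartile. With 2 libraries per genotype, and about 29.8 to 32.9 fragments behind 1 FPKM in 1500 bp, low members rest on few fragments, and a p that misses the threshold does not show that a gene did not differ.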

Other observations

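UGT76B1, a glucosyltransferase of isoleucic acid, salicylic acid and N-hydroxypipecolic acid, is listed in the files under its locus name AT3G11340 and so was not taken as a member by its name. It was at 31.4 and 21.4 FPKM in WT and at 45.1 and 60.9 in fer-4. Both fer-4 values were above both WT values, and it rose with a log2 change of 0.99, an SE of 0.21 and an adjusted p of 0.0235 (limma). Counted with the salicylate enzymes, it makes 2 of 6 tested UGT genes that rose. The sum and counts given for the UGT76 group leave it out.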
